A study of Mus musculus with 12 samples.

Results

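The major urinary protein (MUP) genes described here are 10 genes listed by name, Mup1, Mup3, Mup7, Mup9, Mup14, Mup17, Mup18, Mup20, Mup21 and Gm2083, out of 24537 genes in a table of liver RNA-Seq values. The list was chosen by earlier results of these libraries in which these genes were lower under calorie restriction (CR) than in control (Con) mice, so differences between CR and Con are given for them as a description, without a test. MUPs are small secreted proteins of the lipocalin family, barrel-shaped carriers that bind volatile molecules. The liver of male mice makes them in large amounts, and they pass through the blood into the urine, where they hold and slowly release pheromones. Mup20, also called darcin, is itself a male scent signal. Transcription of MUP genes in the liver depends on the pulsed growth hormone secretion of males, acting through Jak2 and Stat5b, and also responds to androgen, thyroid hormone and glucocorticoids.

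The livers came from 12 male C57Bl/6J mice, individually housed from 6 weeks of age. Con mice were fed ad libitum, and CR mice received 30% less food, as a fortified form of the diet given daily at midday. There were 3 mice of each diet at day 25 and 3 at day 30 of the intervention. All mice were from the labeling study, in which heavy water was given for some days before the livers were collected. Libraries are named by the column headings, Con7 to Con9 and CR7 to CR9 at day 25, and Con10 to Con12 and CR10 to CR12 at day 30. Nothing in the labels ties a single Con column at day 30 to a single mouse, and those columns were used as a group. Recovered depth was 15748812 to 23345622 reads per library. Values are FPKM, in which the exon reads of a gene are divided by its exon length and by library depth. Hepatocyte markers were high in every library, with a summed FPKM of 35828.5 to 63808 over 6 markers, and all 6 were above 1 FPKM throughout.

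All 10 genes lie on the minus strand of chromosome 4 of mm10. By coordinate the first, Mup7, is at chr4:60066469-60070475 and the last, Mup21, at chr4:62147832-62150841. Mup9 (chr4:60418046-60421952), Mup1 (chr4:60498934-60501960), Mup14 (chr4:61300037-61303998), Mup17 (chr4:61591931-61595832) and Mup18 (chr4:61670178-61674094) stand between them, as does Mup20 (chr4:62050235-62054117). Mup3, at chr4:62083476-62087312, is next to Mup20. Each value covers the exons of 1 transcript, and introns are not counted.

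Many of these genes are near copies. Of all stretches of 100 bases in the RefSeq-matched GENCODE transcript of each gene, the length of a read, 96.9% occurred in no other Mup transcript for Mup3, 95.5% for Mup21 and 61.2% for Mup20. That share was 40.6% for Mup17 and 29.9% for Mup1, and fell to 14.9% for Mup9, 12.9% for Mup7 and for Mup18, and 8.6% for Mup14. The transcripts of Mup7 and Mup14 were 99.0% identical, whereas those of Mup3 and Mup21 were 69.8% identical. How reads that fit several genes were counted is not given in the sources used here, so values of Mup7, Mup9, Mup14 and Mup18 are the least certain as values of a single gene.

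The row named Gm2083 did not hold a separate gene. It was listed with 6 copies and at the position of Mup11 (chr4:60658466-60662365). Its reads equalled the added reads of Mup11, Mup16, Mup17 and Mup18 within 0.102% in every library. Mup17 supplied 34.6% to 43.7% of them in Con libraries and 2.46% to 17.3% in CR libraries. A sum over the 10 listed rows therefore counts Mup17 and Mup18 again and takes in Mup11 and Mup16. Shares of reads below count each read once.

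Promoters of 7 of the 10 genes were in the RefSeq table used (GRCm38.p6), each from 250 bases before to 50 bases after the listed start. Mup1, Mup20 and Gm2083 had no entry. The promoters of Mup17, Mup3 and Mup21 are shown because at day 30 Mup17 differed most and Mup3 least between the diets, and Mup21 has a promoter like that of Mup3. They are written 5′ to 3′ on the strand of the gene, the minus strand, and capitals mark matches on either strand to the 5 motifs searched.
Mup17, chr4:61595783-61596082: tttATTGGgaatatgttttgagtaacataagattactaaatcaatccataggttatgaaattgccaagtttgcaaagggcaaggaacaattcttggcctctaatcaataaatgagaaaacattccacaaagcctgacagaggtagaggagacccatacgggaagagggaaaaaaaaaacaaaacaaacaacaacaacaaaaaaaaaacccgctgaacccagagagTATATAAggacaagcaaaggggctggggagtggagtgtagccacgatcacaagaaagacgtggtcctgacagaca
Mup3, chr4:62087268-62087567: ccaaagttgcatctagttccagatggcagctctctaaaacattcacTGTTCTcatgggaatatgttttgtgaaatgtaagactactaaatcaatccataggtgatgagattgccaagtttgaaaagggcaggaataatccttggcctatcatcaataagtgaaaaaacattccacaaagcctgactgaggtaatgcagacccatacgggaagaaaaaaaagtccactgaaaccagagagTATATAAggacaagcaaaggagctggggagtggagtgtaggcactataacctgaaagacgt
Mup21, chr4:62150792-62151091: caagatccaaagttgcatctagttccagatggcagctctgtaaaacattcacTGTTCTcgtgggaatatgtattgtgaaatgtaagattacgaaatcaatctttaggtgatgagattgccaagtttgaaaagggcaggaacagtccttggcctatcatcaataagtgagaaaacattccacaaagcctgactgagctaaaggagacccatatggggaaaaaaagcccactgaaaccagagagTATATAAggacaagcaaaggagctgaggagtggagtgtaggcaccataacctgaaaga
Promoters of Mup3 and Mup21 were 90.3% identical, and those of Mup17 and Mup3 59.0%, windows being shifted relative to each other by their listed starts. Both strands were searched for 4 motifs first. TATAAA, the TATA box letters, was in 0 of the 7 promoters, against 13.62% of all 32851 promoters of the same length. TTCNNNGAA, the letters bound by Stat5, was in 0 of 7, against 8.3%. AGAACA, part of the element bound by the glucocorticoid receptor, was in 2 of 7, Mup3 and Mup21, against 18.97%. CCAAT was in 4 of 7, against 37.41%. TATATAA was added as the fifth motif after the sequences had been read, and was in 6 of 7 against 3.24%. The exception was Mup7, whose listed start lies further upstream. TATATAA was also in 7 of 7 promoters of other Mup genes. Many Mup promoters are near copies, those of Mup9 and Mup17 being 93.3% identical, so matches in them are not independent. The length of the longest run made only of A and C, also chosen after the sequences had been read, was 42 bases in Mup17 and 44 in Mup9, 18 in Mup14 and in Mup18, 9 in Mup7, 8 in Mup3 and 7 in Mup21. The Mup7 window ends before the stretch where this run lies in Mup9 and Mup17. In the 7 other Mup promoters the longest run was from 10 bases in Mup6 to 45 in Mup2. These matches describe the letters in the windows, and the windows end 250 bases upstream.

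In Con livers the MUP genes were among the most abundant transcripts. By mean FPKM over 6 Con libraries, Mup3 ranked 4 of all genes, Gm2083 15, Mup20 17, Mup7 26 and Mup17 43. Mup21 ranked 252, Mup14 425, Mup9 1121, Mup1 2889 and Mup18 4479. The reads of the listed genes, each counted once, were 1.36%, 1.51% and 0.907% of the library in Con7, Con8 and Con9, and 1.07%, 1.86% and 1.44% in Con10, Con11 and Con12. In CR mice they were 0.362%, 0.479% and 0.196% in CR7, CR8 and CR9, and 0.0954%, 0.262% and 0.151% in CR10, CR11 and CR12. The lowest Con library was above the highest CR library at both days.

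Summed over the 10 rows, the mean was 15193.5 ± 3980 FPKM in Con and 3868 ± 1594 in CR mice at day 25 (SD, n = 3 each), 3.93-fold lower in CR. The day 30 means were 17557 ± 5060 in Con and 1889 ± 944 in CR mice, 9.30-fold lower. Without Mup3, the log2 ratio of the means went from -1.97 to -3.05 at day 25 and from -3.22 to -5.09 at day 30. Fewer cells of a type and less RNA per cell cannot be told apart in whole liver. The summed FPKM of 5 Kupffer cell markers was 23.9 to 44.8 in Con and 16.5 to 19.6 in CR mice at day 25, and that of 5 stellate cell markers was 61.6 to 68.1 and 73.3 to 81.6. At day 30 the Kupffer sums overlapped, and the stellate sums were 53.1 to 69.1 and 77.4 to 93.1. Hepatocyte sums at day 30 were 35828.5 to 44704 in Con and 52681 to 63808 in CR mice, and endothelial sums over 5 markers were 29.0 to 31.9 and 38.0 to 43.1. Most of the hepatocyte sum was Alb, with means of 29732 FPKM in Con and 46413 FPKM in CR mice. Fitted log2 differences of CR from Con at day 30 were 0.64 for Alb, 1.69 for Tat and 0.48 for Cps1. They were 0.12 for Ttr, 0.08 for Hnf4a and -0.23 for Apoa1. Sums of erythroid and of cholangiocyte markers overlapped between the diets at both days. No marker on these lists was at 0 in all libraries, and the part of cell makeup in the MUP values was not tested.

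**Figure D1:**
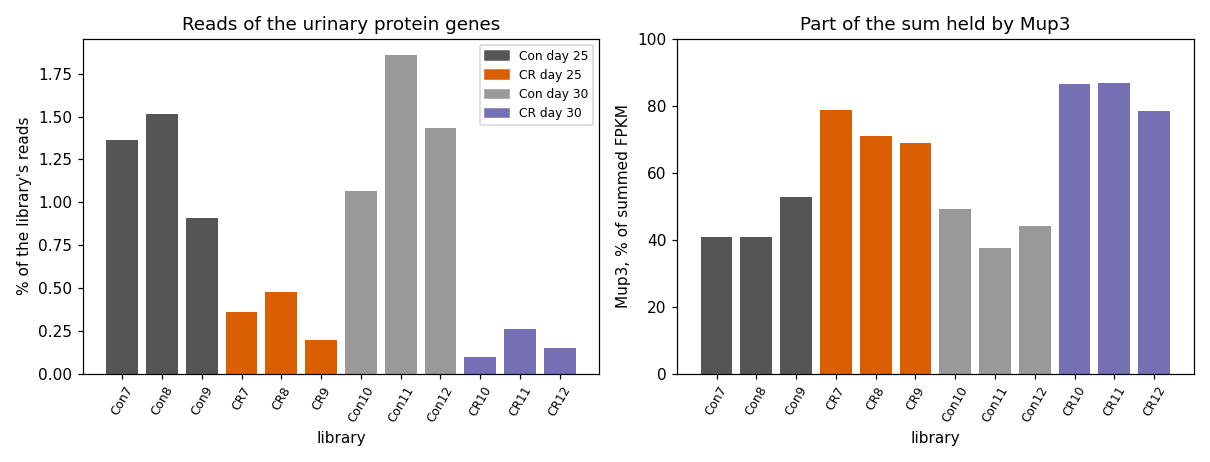
Left, reads of the listed MUP genes, each read counted once, as a percent of all reads of the library (vertical axis), 1 bar per library. Right, FPKM of Mup3 as a percent of the FPKM summed over the 10 rows. Con bars on the left reach 0.907% to 1.86% and CR bars 0.0954% to 0.479%, and on the right Mup3 holds 37.4% to 52.9% in Con and 69.0% to 86.8% in CR libraries.

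Mup3 was the most abundant member and the one that differed least. Its FPKM was 6854, 7426 and 5641 in Con mice and 3179, 3807 and 1517 in CR mice at day 25. At day 30 it was 6271, 8548 and 7507 in Con mice and 922, 2532 and 1321 in CR mice. The groups did not overlap at either day, and the mean was 2.34-fold lower in CR at day 25 and 4.68-fold lower at day 30. Mup3 made up 44.9% ± 6.93 of the summed FPKM in Con and 72.9% ± 5.21 in CR mice at day 25, and 43.5% ± 5.88 and 84.0% ± 4.73 at day 30 (SD, n = 3 each), so that what MUP RNA was left in CR livers was mostly Mup3.

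Mup20, the gene of darcin, was 3015, 2919 and 1547 FPKM in Con and 368, 532 and 224 FPKM in CR mice at day 25. Its values at day 30 were 1546, 4203 and 3697 FPKM in Con and 65.4, 192 and 199 FPKM in CR mice. These values did not overlap, and Mup20 was 6.66-fold lower at day 25 and 20.7-fold lower at day 30. Its part of the sum was 16.2% ± 1.74 in Con and 9.73% ± 0.548 in CR mice at day 25 (SD, n = 3 each).

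Mup17, one of the near-identical genes of the central array, differed most at day 30. It was 1518, 1268 and 587 FPKM in Con and 12.6, 63.9 and 18.7 FPKM in CR mice at day 25. Values of 872, 2018 and 1050 FPKM in Con and 2.10, 2.99 and 4.25 FPKM in CR mice were found at day 30, the latter resting on 43, 51 and 87 reads. The CR mean was 35.5-fold lower at day 25 and 422-fold lower at day 30, and in the mean over 6 libraries Mup17 moved from rank 43 in Con to rank 2414 in CR.

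Mup7, another gene of that array, was 1509, 2317 and 1243 FPKM in Con and 277, 536 and 157 FPKM in CR mice at day 25. Mup7 at day 30 was 1544, 2289 and 1679 FPKM in Con and 32.1, 53.9 and 54.4 FPKM in CR mice. Every CR value at day 30 was below every CR value at day 25. Mup7 was 5.22-fold lower under CR at day 25 and 39.2-fold lower at day 30. Mup21, the last gene of the cluster, was 189, 271 and 159 FPKM in Con and 31.2, 39.3 and 4.93 FPKM in CR mice at day 25, and CR9 was far below the other two. Day 30 gave 166, 320 and 169 FPKM in Con and 9.47, 11.8 and 7.51 FPKM in CR mice. The fold was 8.21 at day 25 and 22.8 at day 30.

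The other members had lower levels. Mup14 was 74.5 to 180 FPKM in Con and 2.98 to 16.8 FPKM in CR mice at day 25, and 97.5 to 150.3 and 0.14 to 1.79 FPKM at day 30. Mup9 was 11.6 to 58.2 and 0.399 to 1.09 FPKM at day 25, and 29.6 to 77.5 and 0.245 to 0.53 FPKM at day 30. Mup9 had the largest fold at day 25, 55.8. Mup1 was 9.56 to 14.3 and 2.15 to 3.46 FPKM at day 25, and 10.7 to 24.5 and 0.522 to 1.41 FPKM at day 30. Mup18 was 2.63 to 11.7 and 0.283 to 0.651 FPKM at day 25, and 4.39 to 16.0 and 0.049 to 0.234 FPKM at day 30, where the CR values rested on 1, 4 and 4 reads. The composite Gm2083 row was 1391 to 3687 and 156 to 373 FPKM at day 25, and 2216 to 5196 and 31.5 to 123 FPKM at day 30. Folds of genes with so few reads in CR are known only roughly.

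**Figure D2:**
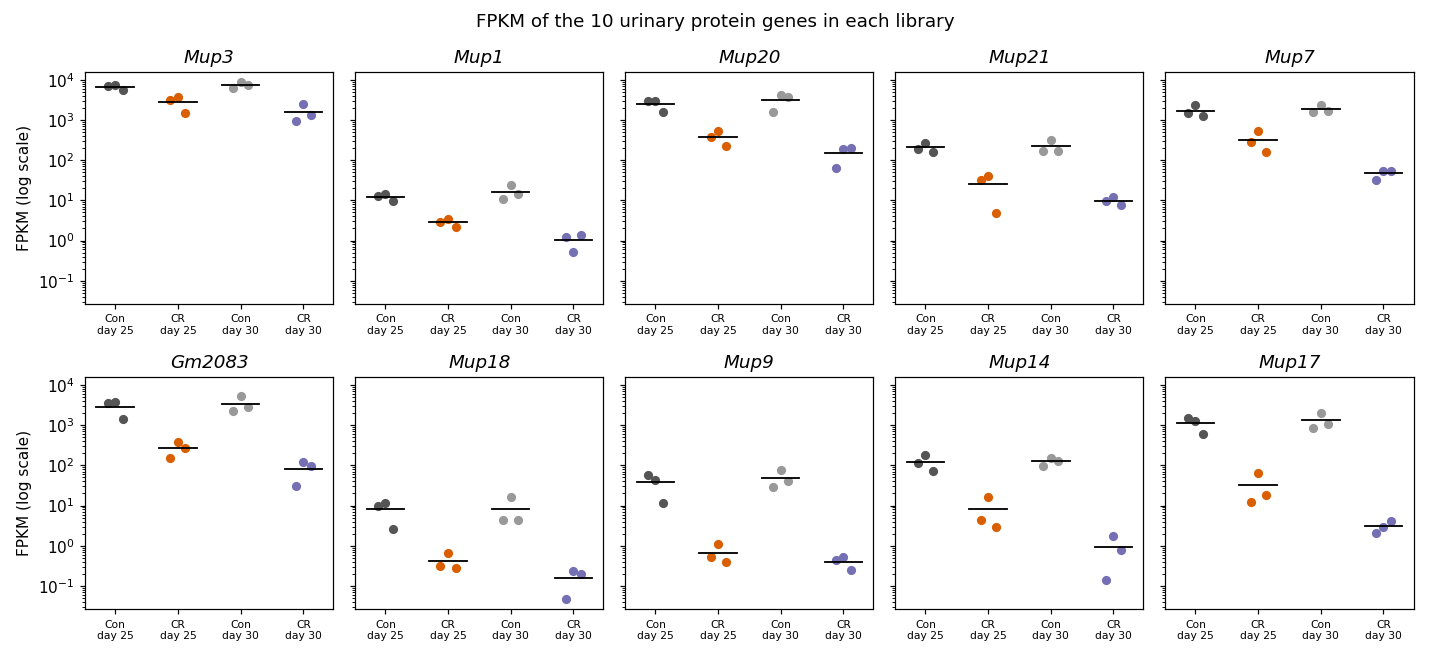
FPKM of each of the 10 genes (vertical axis, log scale) in the 3 libraries of each group, with points for libraries and a line at the group mean, ordered by the fold at day 30 from 4.68 in Mup3 to 422 in Mup17. All CR points lie below all Con points of the same day in every panel.

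In all 10 genes each CR library was below each Con library at both days. The same held for 18% of the 10593 tested genes at day 25 and for 24.3% at day 30. All 10 passed the filter of at least 1 FPKM in at least 3 libraries, which the Con libraries alone satisfied, and all were lower by limma on log2(FPKM + 1) past an adjusted p of 0.1 and a log2 fold change (FC) of 1 at both days. Of all tested genes, 1.48% passed these thresholds at day 25 and 2.21% at day 30, and 0.642% and 1.28% did so in the lower direction. As the genes were selected on this contrast, nothing is read from these counts. The median log2 FC of the 10 was -3.06 at day 25 and -4.73 at day 30, beside -0.04 and -0.07 over all tested genes.

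**Figure D3:**
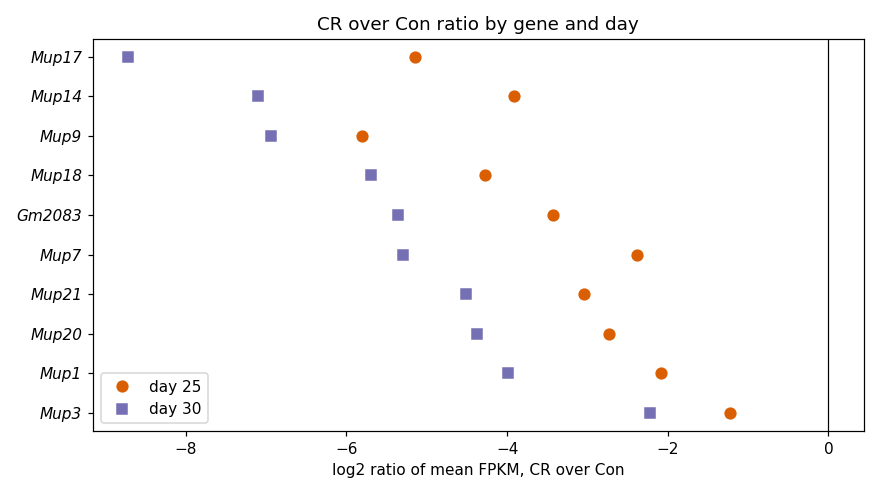
Log2 ratio of the mean FPKM of CR over Con mice (horizontal axis) for each gene at day 25 (circles) and day 30 (squares). Every ratio is below 0, and for each gene the square lies to the left of the circle.

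Within groups the listed genes mostly deviated together. Con9 was the lowest library of its group for 10 of 10 genes and Con10 for 10 of 10, and CR8 and Con11 were the highest of their groups for 10 of 10. At day 25, Con8 was highest in Con for 7 and Con7 for 3, and CR9 was lowest in CR for 8 and CR7 for 2. The CR group of day 30 was less uniform. There CR10 was lowest for 7, CR12 for 2 and CR11 for 1, and CR11 was highest for 6 and CR12 for 4. Deviations of log2 values from the group mean correlated between pairs of the listed genes with r from 0.167 to 0.942 (median 0.634, 45 pairs, 12 libraries). Rows that share reads, such as Gm2083 and Mup17, are among these pairs. Outside the family, the tested genes whose deviations were most like those of the sum were C8b (r = 0.976), Syt1 (0.961), Cd276 (0.955), Palmd (0.954) and C8a (0.951), over 12 libraries. They were picked as the highest of all tested genes, and 26 genes outside the family had r of at least 0.9. Among the listed genes, r with the sum ran from 0.358 for Mup1 to 0.961 for Mup3. C8a and C8b encode chains of complement component C8, made by the liver. C8b was 109 ± 20.7 FPKM in Con and 80.1 ± 25.5 FPKM in CR mice at day 25, and 131 ± 36.2 and 61.8 ± 19.3 FPKM at day 30 (SD, n = 3 each). The others did not all go the same way under CR. Log2 FCs at day 25 and day 30 were 0.45 and 0.09 for Syt1 and -0.30 and 0.11 for Palmd. Those of Cd276 were -0.44 and -0.79, and those of C8a -0.38 and -1.24.

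Between the days, which the choice of genes did not use as a contrast although the libraries are the same, no difference was called in Con mice. Of the 10 genes, 0 passed the thresholds between day 30 and day 25 within Con, and 0% of all tested genes did by limma, while 765 had an unadjusted p under 0.05. The alternatives, voom on recovered reads among them, also gave 0 of the 10. The largest difference was that of Mup9, a log2 FC of 0.54 (standard error 0.47, adjusted p = 0.818, limma). The summed FPKM did not differ detectably in Con mice (exact permutation test, 2-sided, p = 0.6, n = 3 each).

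Within CR mice, all 10 genes had lower fitted means at day 30 than at day 25, with a median log2 FC of -1.15 beside -0.01 over all tested genes. Of the 10, 2 passed the thresholds, beside 0.142% of all tested genes. Mup7 had a log2 FC of -2.62, with a standard error of 0.38 (adjusted p = 0.0278, limma). Mup17 had one of -2.69, with a standard error of 0.52 (adjusted p = 0.0857, limma). The call of Mup7 was lost without CR7 (log2 FC -2.65, adjusted p = 0.117, limma) and without CR10 (log2 FC -2.38, adjusted p = 0.148, limma). That of Mup17 was lost without any of Con8, CR7, CR8, CR9, CR10, CR11 or CR12 (adjusted p of 0.114, 0.117, 0.172, 0.142, 0.28, 0.167 and 0.131 in that order, limma), while its log2 FC stayed between -3.15 and -2.02 with each library left out. Mup21, with a log2 FC of -0.92 (adjusted p = 0.676, limma), passed only without CR9 among the libraries left out, at -1.79 (adjusted p = 0.0697, limma). The summed FPKM was 3868 ± 1594 at day 25 and 1889 ± 944 at day 30 in CR mice, 2.05-fold lower (exact permutation test, 2-sided, p = 0.2, n = 3 each). An exact permutation test of 3 against 3 cannot go below 0.1.

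The CR effect was not shown to differ between the days for any of the 10 genes. For this difference, 0 of the 10 passed, beside 0.00944% of all tested genes, while 366 of all tested genes had an unadjusted p under 0.05, and voom on recovered reads also gave 0 of the 10. Mup7 came nearest, with a log2 difference of -2.77 and a standard error of 0.53 (adjusted p = 0.307, limma). It passed without CR9 (-3.20, adjusted p = 0.0761, limma). For the sum, the log2 difference was -1.27 (exact permutation of days within each diet, 400 arrangements, p = 0.115).

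The table holds 12 other Mup rows, of which 6 passed the filter. Mup11, another gene of the central array and part of the Gm2083 row, was 1551 ± 733 FPKM in Con and 213 ± 75.9 FPKM in CR mice at day 25 (SD, n = 3 each). Its log2 FC was -2.79 at day 25 and -4.92 at day 30, and that of Mup16 was -2.77 and -3.90. As the reads of both genes are part of the Gm2083 row, which was selected on this contrast, these values are a description with no test. Mup12 and Mup6 were lower past the thresholds at both days, with log2 FCs of -1.53 and -1.55 at day 25 and of -2.88 and -2.65 at day 30. Only 22.5% of the 100-base stretches of Mup12 occurred in no other Mup transcript. Its reads may be shared with listed genes, so its call is a description. Mup5 had a log2 FC of -0.79 at day 25 and fell by 1.10 at day 30 (adjusted p = 0.00351, limma). Mup4 had log2 FCs of -0.54 and -0.90, under the fold threshold. Both had low FPKM, where the 1 added before taking log2 makes these FCs smaller. Without the Con libraries, where they were higher, neither would have passed the filter. Their threshold results are therefore a description and not a test. By mean FPKM, Mup4 was 3.09-fold lower in CR at day 25 and 7.63-fold lower at day 30. Mup5 was 2.66-fold and 3.65-fold lower. In CR mice Mup4 rested on 4, 4 and 6 reads at day 25 and 4, 2 and 3 at day 30. The remaining Mup2, Mup8, Mup10, Mup13, Mup15 and Mup19 did not reach the filter. Mup13 was highest among them, at 1.11 ± 0.533 FPKM in Con mice at day 30.

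Genes other than Mup that are higher in male than in female liver made a list of 17, of which 16 were tested. The list was written with earlier results of these data known, so its counts and adjusted p-values describe these libraries and are not a fresh test. Under CR, 6 were lower past the thresholds at day 25, beside 0.642% of all tested genes. At day 30, 13 were lower, beside 1.28%, and 0 were higher past the thresholds at either day. By sign alone, 14 were lower and 2 higher at day 25, and 16 were lower at day 30. Their median log2 FC was -1.02 at day 25 and -2.11 at day 30. Cyp4a12b, a cytochrome P450 that hydroxylates fatty acids, fell by 2.20 at day 25 (adjusted p = 0.00237) and by 3.47 at day 30 (adjusted p = 6.95e-05, limma). Elovl3, a fatty acid elongase, was 46.8 ± 6.65 FPKM in Con and 17.1 ± 9.20 FPKM in CR mice at day 25, and 55.5 ± 8.98 and 2.86 ± 1.58 FPKM at day 30 (SD, n = 3 each). Serpina1e, an antitrypsin gene, had log2 FCs of -2.71 and -6.51 (adjusted p = 0.094 and 0.001, limma). Selenbp2 and Hsd3b5 passed at day 30 with log2 FCs of -6.13 and -3.62 (adjusted p = 0.000974 and 0.0309, limma). With the replicate number as a block, Selenbp2 also passed at day 25 (log2 FC -2.40, adjusted p = 0.0125, limma), where it had not without the block (adjusted p = 0.111, limma). It passed there too by voom on recovered reads (adjusted p = 0.0642), without Con9 (log2 FC -3.16, adjusted p = 0.0645, limma) and without CR8 (log2 FC -3.50, adjusted p = 0.0164, limma), and its log2 FC ranged from -3.50 to -1.32 with each library left out. The count of 6 at day 25 was 3 without Con8, without CR7 or without CR9. The day 25 call of Serpina1e was lost on leaving out 9 of the 12 libraries, all but CR8, CR10 and CR11, with a log2 FC of -1.62 without CR9, and the day 30 call of Hsd3b5 without Con11 (-2.85) or CR10 (-3.05).

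Genes higher in female liver made a list of 26, of which 16 were tested, also written with earlier results of these data known. Of these, 8 were higher past the thresholds at day 25 and 12 at day 30, and 0 were lower past them. The shares of all tested genes past the thresholds in either direction were 1.48% and 2.21%. In the higher direction alone, 89 of the 10593 tested genes passed at day 25 and 98 at day 30. For the list by sign alone, 14 were higher and 2 lower at day 25, and 15 were higher and 1 lower at day 30. The median log2 FC of the 16 was 1.14 and 1.79. Genes near 0 in Con livers could pass the filter on low FPKM only where CR raised them. Cyp2b9, Cyp2a4 and Cyp2b13, at most 0.477, 0.275 and 0.064 FPKM in Con libraries, passed it through CR libraries alone. The filter thus favoured genes higher under CR, and nothing is read from these counts and medians. Cyp2b9, a cytochrome P450, was 0.116, 0.029 and 0.477 FPKM in Con and 51.4, 19.7 and 60.6 FPKM in CR mice at day 25. At day 30 its values were 0.157, 0.025 and 0.214 FPKM in Con and 196, 127 and 121 FPKM in CR mice. It rose by 5.09 on the log2 scale at day 25 and by 7.01 at day 30 (adjusted p = 9.17e-06 and 3.99e-07, limma). Cyp2a4 rose by 1.21 and 2.51. Cyp2b13 was 41.0, 2.92 and 1.49 FPKM in CR10, CR11 and CR12 and at most 0.026 FPKM in Con mice at day 30, a log2 FC of 2.88 (adjusted p = 0.019, limma). It was 1.63 without CR10, still past the thresholds, and the call was lost by voom on recovered reads (adjusted p = 0.138). Cyp2b13 reached 1 FPKM only in CR10, CR11 and CR12, and so passed the filter only through the group where it was high. Its calls are therefore a description and not a test. Acot3 rose by 1.43 at day 25 (adjusted p = 0.0563) and by 2.78 at day 30 (adjusted p = 0.0014, limma), and its call at day 25 was lost without Con7, Con8, CR7 or CR9 (log2 FC 1.05, 1.33, 1.48 and 1.17). Several of these Cyp and Serpina1 genes have close copies, so their single values are uncertain.

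**Figure D4:**
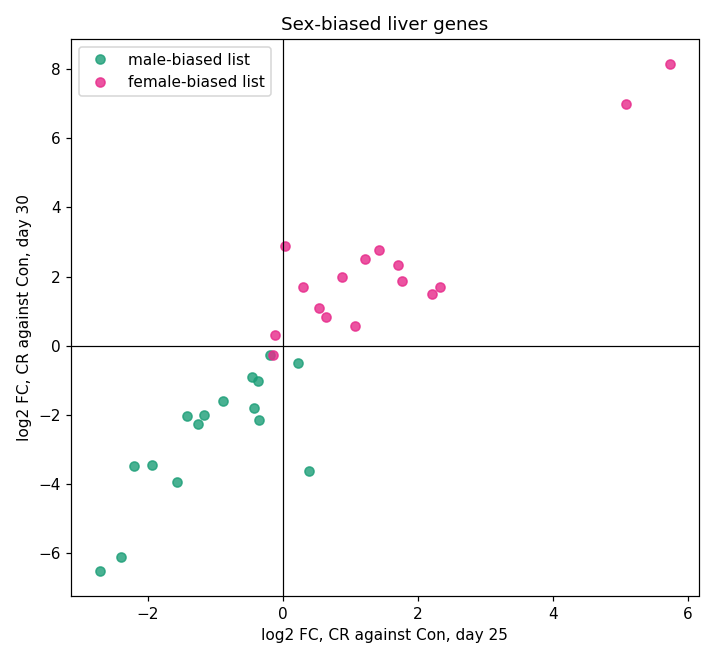
Log2 FC of CR against Con at day 25 (horizontal axis) and day 30 (vertical axis) of the 16 tested genes of the male-biased list and the 16 of the female-biased list, 1 point per gene. Male-biased genes lie below 0 at day 30 and female-biased genes, 1 apart, above it.

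Of 10 listed genes of the growth hormone pathway 9 were tested, and 0 passed at either day, with medians of -0.17 and -0.25. Over all tested genes, 1.48% passed at day 25 and 2.21% at day 30. A count of 0 in 9 is near that share, so nothing is read from it. Ghr, the growth hormone receptor, was 123 ± 13.4 FPKM in Con and 121 ± 28.4 FPKM in CR mice at day 25, and 137 ± 1.29 and 102 ± 17.7 FPKM at day 30 (log2 FC -0.44, adjusted p = 0.101, limma). The log2 FC at day 30 was -0.25 for the kinase Jak2, -0.40 for Stat5a and -0.11 for Stat5b. It was 0.44 for Socs2 and 0.30 for Cish, both feedback inhibitors induced by Stat5, and 0.16 for Igf1, the circulating growth factor. Without Con11, Socs2 passed at day 30 (log2 FC 1.08, adjusted p = 0.0318, limma). RNA levels do not measure hormone pulses or phosphorylation.

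Among 12 regulators of MUP transcription, all tested, 1 was lower past the thresholds at both days, beside 0.642% and 1.28% of all tested genes. Of the 12, 0 were higher past them. By sign alone, 6 were higher and 6 lower at day 25, and 5 were higher and 7 lower at day 30. The gene past the thresholds was Thra, a thyroid hormone receptor, at 10.4 ± 1.45 FPKM in Con and 3.67 ± 0.57 FPKM in CR mice at day 25, and 9.44 ± 2.16 and 3.38 ± 0.231 FPKM at day 30 (log2 FC -1.28 and -1.23, adjusted p = 0.000622 and 0.0004, limma). Thrb, the main thyroid hormone receptor of the liver, had log2 FCs of 0.00 and 0.09. The glucocorticoid receptor Nr3c1 had log2 FCs of 0.00 and -0.16, and the repressor Zhx2 of 0.11 and 0.23, neither past the thresholds.

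Of 9 other lipocalins tested, 0 were lower past the thresholds at either day, 1 was higher past them at day 25 and 2 at day 30. Of the 10593 tested genes, 89 were higher past them at day 25 and 98 at day 30, and 0.642% and 1.28% were lower. A count of 0 lower in 9 is near that share, so nothing is read from it. By sign alone, 6 were higher and 3 lower at day 25, and 8 were higher and 1 lower at day 30. Orm2, an acute-phase orosomucoid, rose by 1.76 and 2.02 on the log2 scale (adjusted p = 0.0031 and 0.000757, limma), and Orm3 rose by 2.53 at day 30 (adjusted p = 0.00328, limma). At day 25, Orm3 had a log2 FC of 1.00 (adjusted p = 0.19, limma), which passed with the replicate block (adjusted p = 0.0373, limma). Rbp4, the retinol carrier, had log2 FCs of 0.16 and 0.38, Apom of 0.30 and 0.28 and Lcn2 of -0.05 and 1.17 (adjusted p = 0.164, limma), and Lcn2 passed at day 30 without Con8 (log2 FC 1.17, adjusted p = 0.0823, limma). Of 19 other plasma protein genes, 0 passed at either day. This is near the share over all tested genes, 1.48% at day 25 and 2.21% at day 30. Alb, the gene of albumin, was 33014 ± 3605 FPKM in Con and 38410 ± 1726 FPKM in CR mice at day 25, and 29732 ± 3912 and 46413 ± 5338 FPKM at day 30. Its log2 FC of 0.64 at day 30 was under the fold threshold (adjusted p = 0.00791, limma). Apoa1 had log2 FCs of -0.24 and -0.23, and Ttr of 0.19 and 0.12.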

How the data were processed

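Liver RNA of 12 mice was sequenced as 100 bp paired-end reads on 1 lane. Per the labels and methods, the authors used CASAVA 1.8.2, FastQC, BWA against mm10 and DESeq2. The deposited values are FPKM, which HOMER computed, per the file header, by counting exon reads of 1 transcript for each gene. Whole reads were worked out from the spacing of low FPKM (99.1% to 99.9% of low values whole within 0.1 read). FPKM are not counts, so the DESeq2 test of the methods was not run.

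From the deposited FPKM, log2(FPKM + 1) of the 10593 genes with at least 1 FPKM in at least 3 libraries was fitted with limma 3.58.1 (R 4.3.3), as 4 group means in a single model, with moderated variances that followed mean expression. A gene passed at a Benjamini-Hochberg adjusted p under 0.1, over all tested genes, and an absolute log2 FC of at least 1. The pseudocount of 1 makes the fold of low genes smaller. Summed FPKM was compared between days by 2-sided exact permutation of log2 sums. The model was tested on simulated data. Nothing in the labels says whether replicates share litters or batches, so p-values measure only the spread between these mice.

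The members, the gene lists and the tests were chosen with earlier results of these data known. Genes are named by a rule: all Mup genes, the genes of the growth hormone and MUP regulator lists with known roles, up to 5 genes per list with the largest change past the thresholds, and the 5 genes most like the sum. Certain genes that this rule would name are left out here. Same-numbered mice at day 25 deviated together (r = 0.368, 0.306 and 0.106), so a replicate block from the label numbers is given where it changes a call. Promoter motifs numbered 5, of which TATATAA was added after the sequences were read. Alternatives are described in the closing section. Python 3.11.15, pandas 2.3.3, numpy 2.4.6, scipy 1.17.1 and matplotlib 3.10.9 were used.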

Additional observations from a re-analysis of the deposited data

How the results depend on the processing

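Among the alternatives run, the sum over the genes stayed lower under CR at both days. Its log2 ratio moved by more than the spread between replicates only without Mup3 (-3.05 at day 25, -5.09 at day 30). Summing all Mup rows without Gm2083, chosen after seeing the data, moved it by less. The sum in Con mice between days, 0.21, ranged from -0.0312 to 0.416 with each library left out, reversing without Con9 and without Con11. The count of 2 listed genes lower at day 30 within CR was 0 with no filter on low FPKM, and 1 with an adjusted p under 0.05, with only the 2 groups of the contrast or by voom on recovered reads, and 0 to 2 with each library left out. For the difference between days, the count of 0 was 0 to 1 with each library left out. The causes were not tested.

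Genes past the thresholds numbered 157 at day 25 and 234 at day 30. They were 276 and 385 with a pseudocount of 0.1, 302 and 422 by voom. At day 30, median ratio scaling gave 117 higher and 108 lower against 98 and 136. The male-biased, female-biased, growth hormone, MUP regulator, lipocalin and plasma protein lists together had 80 tested genes. Of these, 16 passed at day 25 and 28 at day 30, and with the replicate block 20 and 29. The male-biased list held 6 and 13 of the calls without the block, and the female-biased list 8 and 12. The pairing by column numbers at day 30 had r = 0.181, 0.0456 and 0.115 and was taken as a number only. That block moved 1 named call, Lcn2 (adjusted p = 0.00825, limma). The block at day 25 changed no other named call than those of Selenbp2 and Orm3.

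Values near 0 changed sign. With each library left out, the log2 FC between days within Con ranged from -0.0462 to 0.40 for Mup7, -0.13 to 0.98 for Mup9, -0.20 to 0.43 for Mup14, -0.18 to 0.51 for Mup17, -0.58 to 0.32 for Mup18, -0.0402 to 0.72 for Mup20, -0.26 to 0.26 for Mup21 and -0.18 to 0.54 for Gm2083. The difference between days ranged from -0.61 to 0.30 for Mup18. The CR effect at day 25 ranged from -0.58 to 0.0129 for Cish, -0.18 to 0.16 for Ghr, -0.38 to 1.61 for Hsd3b5, -0.70 to 0.54 for Lcn2, -0.13 to 0.11 for Nr3c1, -0.23 to 0.00914 for Stat5b and -0.10 to 0.10 for Thrb. At day 30 it ranged from -0.31 to 1.11 for Cish, -0.16 to 1.08 for Socs2 and -0.0134 to 0.17 for Thrb. TPM gave 0.0236 for Mup18 between days within Con and -0.0157 for Thrb at day 25, and library totals without the MUP reads gave -0.0105 for Thrb. Median ratio scaling gave 0.0103 for Ghr and 0.0578 for Nr3c1 at day 25, and voom gave 0.0476 for Lcn2. Depth limits Mup18, Mup9 and Mup14 in CR libraries.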
